A study of Mus musculus with 6 samples.

Results

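The inhibitory receptors of T cells were followed in lymph node T cells with and without Ezh2, the enzyme by which a Polycomb complex places a repressive methyl mark on histone H3. The set was defined by name as 8 genes, Ctla4, Pdcd1, Lag3, Tigit, Havcr2, Cd160, Btla and Cd200. A probe set, the group of oligonucleotides by which an Affymetrix array reads a transcript, was taken as a member when the platform annotation gave it a single gene symbol and that symbol was one of the 8. This rule found 10 probe sets for 7 of the 8 genes, of 18193 genes named in this way on the array. Cd160 was read by 4 probe sets and the other 6 genes by 1 each, while Tigit was matched by none and was not analysed here. The arrays fall into 2 groups of 3. The control group holds T cells from lymph nodes of the genotype Ezh2 fl/fl, in the usual notation alleles flanked by loxP sites, and the other group is Ezh2 deficient lymph node T cells. The labels give no deleter strain, age, sex, sorting markers, batch or treatment, and do not say whether the arrays came from separate mice, and each p-value therefore reflects no more than the variation among these arrays, part of which may be technical.

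Inhibitory receptors restrain T cells after antigen recognition and many of them appear on the surface only after activation. CTLA-4 competes with CD28 for the B7 molecules CD80 and CD86, PD-1 (the product of Pdcd1) recruits phosphatases to the antigen receptor, and LAG-3 binds MHC class II. BTLA and CD160 bind the same partner, the herpesvirus entry mediator encoded by Tnfrsf14, and TIM-3 (the product of Havcr2) marks strongly stimulated T cells and also myeloid cells. CD200 differs from the others, because it is itself the ligand of an inhibitory receptor, CD200R1, and is carried by activated T cells, B cells and endothelium. Regulatory T cells carry much CTLA-4 and TIGIT, and follicular helper T cells carry PD-1, BTLA and CD200.

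Promoter sequence was available from RefSeq (build GRCm38.p6) for 7 of the 8 genes, in windows of 250 bases before to 50 bases after a transcript start, with 2 windows for Cd160 and none for Lag3. Classical Polycomb targets have promoters rich in the dinucleotide CG, so CG was counted in each window. The 8 windows held 3 to 8 CG, where all 32851 windows of the table had a median of 7 and a middle range of 3 to 20. A CG occurred at least once in 94.6% of all windows. Ctla4 and Cd200 had the most in the set, 8 each, and Havcr2 the fewest, 3. The 250 bases upstream of Ctla4 (chr1:60908775-60909024, plus strand) and of Btla (chr16:45224087-45224336, plus strand) are shown because these were the 2 genes whose arrays separated completely by group. Capitals mark each CG, of which there are 7 upstream of Ctla4 and 4 upstream of Btla.
Ctla4: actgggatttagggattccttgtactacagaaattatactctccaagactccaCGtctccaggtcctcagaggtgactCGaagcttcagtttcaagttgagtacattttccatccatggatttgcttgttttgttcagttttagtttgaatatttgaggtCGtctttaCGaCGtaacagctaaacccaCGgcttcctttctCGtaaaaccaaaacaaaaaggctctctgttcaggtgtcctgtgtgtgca
Btla: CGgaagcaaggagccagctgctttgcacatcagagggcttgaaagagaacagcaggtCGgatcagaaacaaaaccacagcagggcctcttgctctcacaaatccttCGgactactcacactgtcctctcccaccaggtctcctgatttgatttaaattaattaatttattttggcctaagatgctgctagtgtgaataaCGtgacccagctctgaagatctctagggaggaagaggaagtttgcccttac

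The core motif of the NFAT factors that act in activated T cells, GGAAA (or TTTCC on the other strand), was also searched in the 300-base windows. It was found in 4 of the 8 windows of the set, namely those of Ctla4, Pdcd1 and Tigit and 1 of the 2 of Cd160, and in 61.3% of all windows. The single match of Ctla4 lies in the printed stretch as TTTCC.

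Values below are normalised intensities on a linear scale, with the mean ± SD over 3 arrays. Differences are Ezh2 deficient minus Ezh2 fl/fl on the log2(intensity + 43.3) scale, which understates the change of dim probe sets. They were fitted with limma over all 27022 probe sets that passed a filter on dim signal, and a probe set was called at a Benjamini-Hochberg adjusted p under 0.05. The Ezh2 probe set itself read 579, 684 and 801 on the control arrays, against 282, 289 and 276 on the deficient ones, a log2 difference of -1.16 (SE 0.13, unadjusted p = 7.83e-06, adjusted p = 0.0705). That adjusted p missed the threshold with all arrays and was 0.0306 without Ezh2 fl/fl replicate 1. Over all tested probe sets 1 was called (0.0037%, and 0% among the higher ones), and it was not a member. The median deposited intensity ran from 163.3 to 188.1 over the arrays, and the array with the highest, Ezh2 fl/fl replicate 1, stood apart from the other 5 on the first principal component (30.6% of the variance). Markers of T cells were bright on all arrays, with a summed intensity of 99076 to 101556 on the control arrays, against 98279 to 99327 on the deficient arrays for 11 genes.

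None of the inhibitory receptors passed the threshold over all probe sets. Of the 10 member probe sets 8 passed the filter, and 0 of these 8 were called by limma, with 2 at an unadjusted p under 0.05. Those 2, Ctla4 and Btla, were also the ones whose groups did not overlap, both higher in the deficient T cells. Over all tested probe sets 7.22% had an unadjusted p under 0.05, 3.84% higher and 3.38% lower in the deficient arrays. Groups did not overlap for 13.1%, with 6.55% higher and 6.54% lower. The difference was above 0 for 7 of the 8 member probe sets and for 49.3% of all. The median difference was 0.23 over the 8 and -0.0029 over all tested probe sets, whose quartiles were -0.11 and 0.10.

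**Figure D1:**
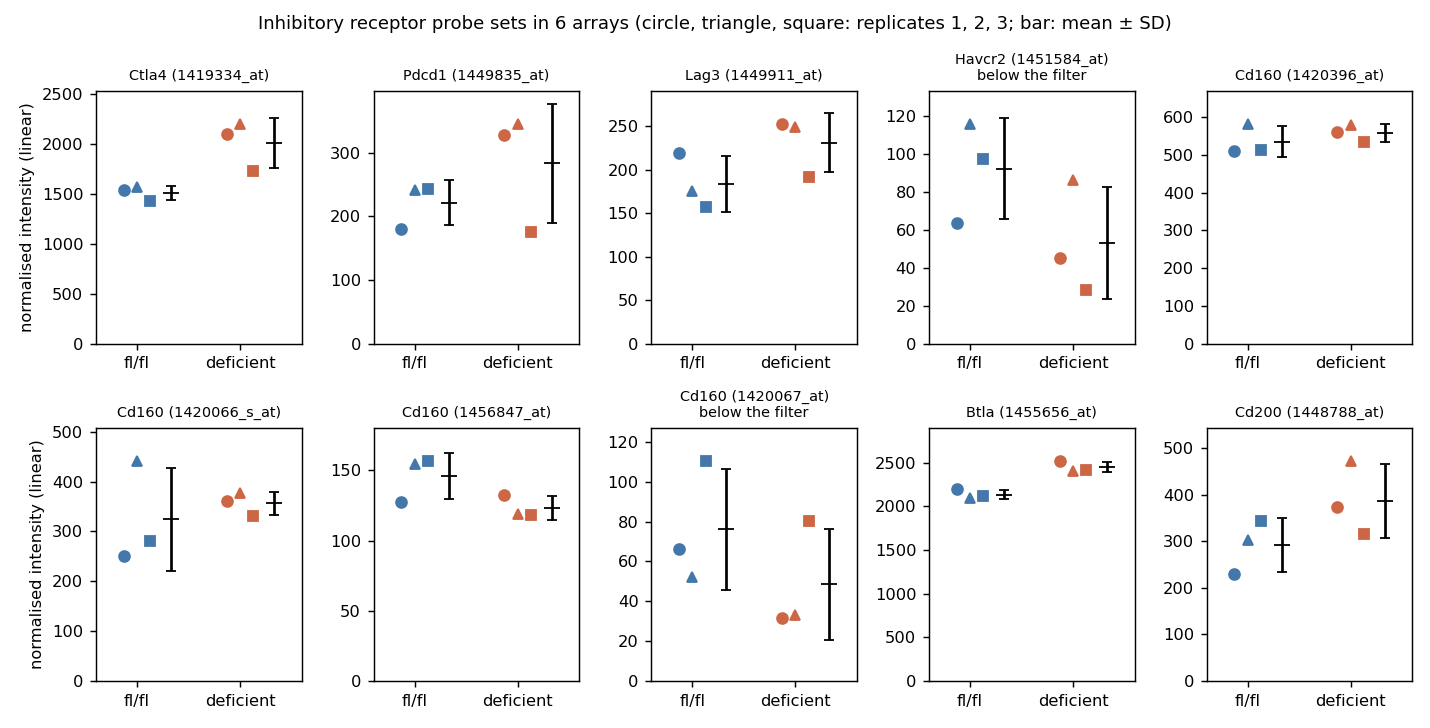
Normalised intensity (linear scale, vertical axis, each panel with its own range from 0) of the 10 probe sets of 7 inhibitory receptor genes in the 3 Ezh2 fl/fl arrays (blue) and the 3 Ezh2 deficient arrays (orange); symbols mark replicates and the bars give the mean ± SD. The deficient arrays lie above all control arrays for Ctla4 and Btla and overlap the controls in the other panels.

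Ctla4, the receptor that competes with CD28 for B7 molecules, had the smallest p of the set. Its probe set read 1536, 1565 and 1429 on the Ezh2 fl/fl arrays, and 2104, 2202 and 1725 on the deficient ones. Every deficient array lay above every control array, with deficient replicate 3 the nearest to the controls. The means were 1510 ± 71.9 and 2011 ± 252 (SD, n = 3 each), a fold of 1.32 with a 95% interval of 1.12 to 1.54. The log2 difference was 0.40 (SE 0.10, unadjusted p = 0.00329, adjusted p = 0.520), which placed this probe set 168th of 27022 by p. An exact permutation test of the 6 values gave p = 0.1, the smallest that 3 arrays against 3 allow.

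Btla, which binds the herpesvirus entry mediator, had a smaller but even difference. It read 2197, 2090 and 2117 on the control arrays, against 2517, 2409 and 2417 on the deficient arrays. The groups were separate, with little spread inside either. The means were 2134 ± 55.5 and 2448 ± 60.2, a fold of 1.14 (95% interval 1.03 to 1.27) and a log2 difference of 0.19 (SE 0.07, unadjusted p = 0.0162, adjusted p = 0.623). The 16 alternatives tried for it gave adjusted p-values from 0.441 to 0.900, and among them the unadjusted p was above 0.05 only without Ezh2 deficient replicate 1 (0.0607).

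Cd160, the other receptor for the same partner, was read by 4 probe sets that did not all lie on the same side. The brightest read 511, 582 and 513 on the control arrays, against 561, 580 and 533 on the deficient arrays. These ranges overlapped almost entirely, and the log2 difference was 0.06 (SE 0.10, adjusted p = 0.924), with an interval on the fold scale from 0.887 to 1.22. The second, whose name ends in _s_at because its oligonucleotides can match several transcripts, read 251, 441 and 280 against 362, 377 and 330, at 0.15 on the log2 scale (SE 0.18, adjusted p = 0.880). Each control array moved this value of Cd160, which was 0.01 without Ezh2 fl/fl replicate 1, 0.37 without replicate 2 and 0.08 without replicate 3. The third read 127, 154 and 157 against 133, 119 and 118, which is -0.18 in log2 units (SE 0.16, adjusted p = 0.838). The fourth, at 76.2 ± 30.4 and 48.5 ± 27.7, lay below the filter.

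Pdcd1 and Lag3, both usually raised by activation, were dim. Pdcd1 read 181, 241 and 243 on the control arrays, against 328, 345 and 176 on the deficient arrays. The deficient group was not uniform, as replicates 1 and 2 were above all controls and replicate 3 was below all of them. The means were 222 ± 35.4 and 283 ± 93.1, and the log2 difference was 0.27 (SE 0.23, adjusted p = 0.826). Lag3 read 219, 175 and 157 on the control arrays, against 253, 249 and 192 on the deficient arrays. Deficient replicates 1 and 2 of Lag3 were above all controls, and replicate 3 fell among them. The log2 difference of Lag3 was 0.28 (SE 0.17, adjusted p = 0.749), with a fold interval of 0.935 to 1.57.

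Cd200 followed a like order of arrays. It read 229, 302 and 344 on the control arrays, against 373, 472 and 315 on the deficient arrays. Deficient replicates 1 and 2 were above all controls and replicate 3 was among them. The means were 292 ± 57.9 and 387 ± 79.3, a log2 difference of 0.36 (SE 0.18, unadjusted p = 0.0715, adjusted p = 0.712). Havcr2 was the one gene of the 7 with no tested probe set, with means of 92.2 ± 26.4 (Ezh2 fl/fl) and 53.1 ± 29.6 (deficient), where the filter lay near an intensity of 113. With no filter its log2 difference was -0.52 (SE 0.27, unadjusted p = 0.0905, adjusted p = 0.794).

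**Figure D2:**
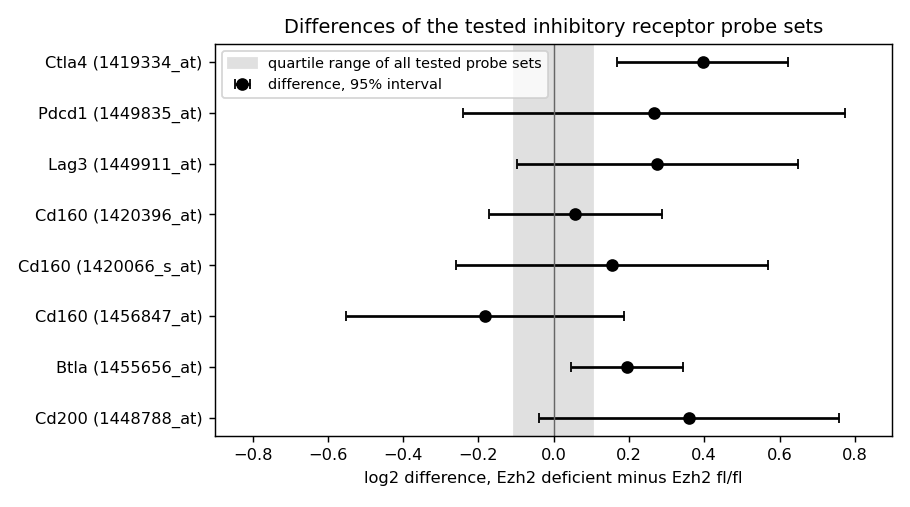
Log2 difference, Ezh2 deficient minus Ezh2 fl/fl (horizontal axis), of the 8 tested member probe sets with its 95% interval from limma; the grey band lies between the quartiles of all tested probe sets, -0.11 and 0.10. The intervals of Ctla4 and Btla lie above 0 and the other 6 include 0.

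Deficient replicate 3 was the lowest of the deficient arrays for Ctla4, Pdcd1, Lag3, Cd200 and every tested probe set of Cd160, but not for Btla. Relative to the mean of the controls, the median of the 8 tested member probe sets was 0.28, 0.30 and 0.06 in deficient replicates 1, 2 and 3, and -0.10, 0.06 and -0.03 in the control replicates. The same median over all tested probe sets lay within 0.0037 of 0 on every array. Quantile normalisation had given all arrays the same distribution, so this closeness was set in advance and is no check for array-wide shifts. Without deficient replicate 3 the log2 difference was 0.50 for Ctla4 (unadjusted p = 0.000519, adjusted p = 0.505), 0.53 for Pdcd1 (unadjusted p = 0.0129, adjusted p = 0.848) and 0.48 for Cd200 (unadjusted p = 0.0325, adjusted p = 0.850). The number of member probe sets at an unadjusted p under 0.05 was then 4, whereas without deficient replicate 1 it was 1. Leaving out Ezh2 fl/fl replicate 1, which stood apart over the whole table, gave 0.41 for Ctla4 and 0.22 for Btla but 0.15 for Pdcd1, against 0.27 with all arrays. The difference of Pdcd1 was 0.15 without deficient replicate 1 and 0.12 without deficient replicate 2. That of Cd200, 0.36 with all arrays, was 0.22 without Ezh2 fl/fl replicate 1 (unadjusted p = 0.23) and also 0.22 without deficient replicate 2 (unadjusted p = 0.264).

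**Figure D3:**
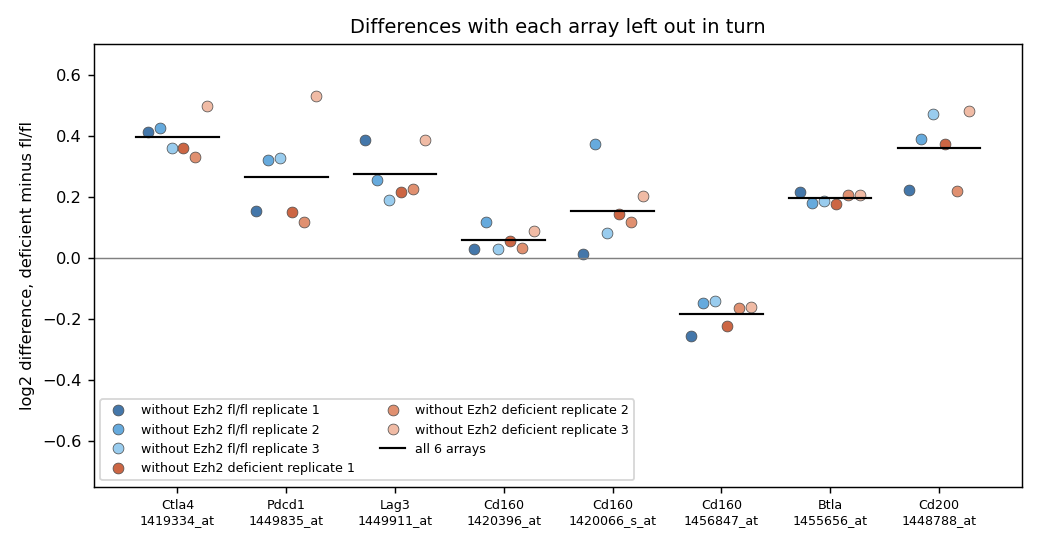
Log2 difference, Ezh2 deficient minus Ezh2 fl/fl (vertical axis), of the 8 tested member probe sets with all 6 arrays (black line) and with each array left out in turn (points, coloured by the array left out). Ctla4 ran from 0.33 to 0.50 and Btla from 0.18 to 0.22, while Pdcd1 ran from 0.12 to 0.53.

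The genes next to the members on the chromosome were read from the order of protein-coding genes in the RefSeq table. Btla and Cd200 are direct neighbours with no protein-coding gene between them. Atg3, the gene on the other side of Btla, was at 0.09 (adjusted p = 0.782). Ctla4 lies between Cd28 and Icos, both stimulatory members of the same receptor family. Cd28 was at 0.17 and 0.19 on its 2 probe sets, and Icos at 0.23, 0.27 and 0.12 on its 3, with the groups not overlapping on the second. No difference of Cd28 or Icos passed the threshold. Lag3 lies next to Cd4, which was at -0.04.

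Ligands and binding partners of the receptors, of which 15 of 16 genes on the array were tested on their brightest probe set, included 9 higher and 6 lower, with a median of 0.07, against -0.01 over all 12275 tested genes. None passed the threshold (0 of 12275 genes did on this probe set). An unadjusted p under 0.05 was reached by 3 on the higher side and 1 on the lower, where 3.92% and 4.29% of all genes did. Nectin3, a ligand of the TIGIT family, had means of 97.5 ± 14.1 (Ezh2 fl/fl) and 167 ± 36.5 (deficient), at 0.57 (SE 0.19). The control mean of Nectin3 lay under the filter level of 113, so it was tested only through the group where it was high, and its place among the 3 carries no weight. Its other probe sets were below the filter, and the brightest of them had separate groups on the lower side (85.9 ± 15.3 and 60.1 ± 2.54). H2-Aa, a chain of MHC class II and so a partner of LAG-3, was at 0.49, with its other tested probe sets at -0.12 and 0.30. The remaining partners were named after their values were seen. Tnfrsf14, the partner of BTLA and CD160, was at 0.39 with overlapping groups (609 ± 131 and 802 ± 110). The PD-1 ligands Cd274 and Pdcd1lg2 were at 0.14 and 0.05, the B7 genes Cd80 and Cd86 at 0.07 and 0.34, and the CD200 receptor Cd200r1 at -0.06. Pvr, the main TIGIT ligand, was at -0.46 on its brightest probe set and from -0.62 to 0.76 on its others, the last of which averaged 93.9 in the controls and so passed the filter only through the deficient arrays.

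A list of stimulatory receptors, the counterparts of the set, divided evenly, with 7 of 13 tested higher and a median of 0.02. These counts include Tnfsf14 (0.27) and Cd40lg (-0.14), which encode ligands, and Cd96 (0.16), which is also described as inhibitory. The 2 genes of this list with the smallest p went opposite ways. Slamf6, a receptor of the SLAM family, was at 0.33 (SE 0.08, adjusted p = 0.483), with its remaining probe sets at -0.24 and 0.44, and Tnfrsf18, a TNF receptor abundant on regulatory T cells, was at -0.27 (SE 0.07, adjusted p = 0.520). Among 12 tested signalling and trafficking partners 7 were higher, with a median of 0.01. Ptpn11, a phosphatase recruited by PD-1 and BTLA, was at 0.26, and at 0.02 and -0.24 on its dimmer probe sets. Lrba, which protects CTLA-4 from degradation, was at 0.18, with others at 0.08 and -0.05. Of 14 tested genes on a list of further inhibitory receptors of lymphocytes 5 were higher, where 46.9% of all genes were, with a median of -0.11. These counts include Entpd1 (-0.19) and Nt5e (0.08), which encode surface enzymes and not receptors. In that list Cd72 was at -0.48 (1791 ± 329 against 1257 ± 36.2) and Klrg1 at -0.31, each with separate groups and an adjusted p of at least 0.520. Groups did not overlap for 3 of the 14, all lower, where 7.8% of all genes were lower in that way and 6.4% higher. The third was Vsir, named after its value was seen, at -0.14 (3340 ± 107 and 3027 ± 103, adjusted p = 0.695). The widest difference of the list was upward, in Klrc1, a natural killer cell receptor named after its value was seen, at 0.74 (unadjusted p = 0.0337, adjusted p = 0.657) with overlapping groups. The means of Klrc1 were 101 ± 58.5 and 189 ± 58.0, so it passed the filter only through the deficient arrays.

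**Figure D4:**
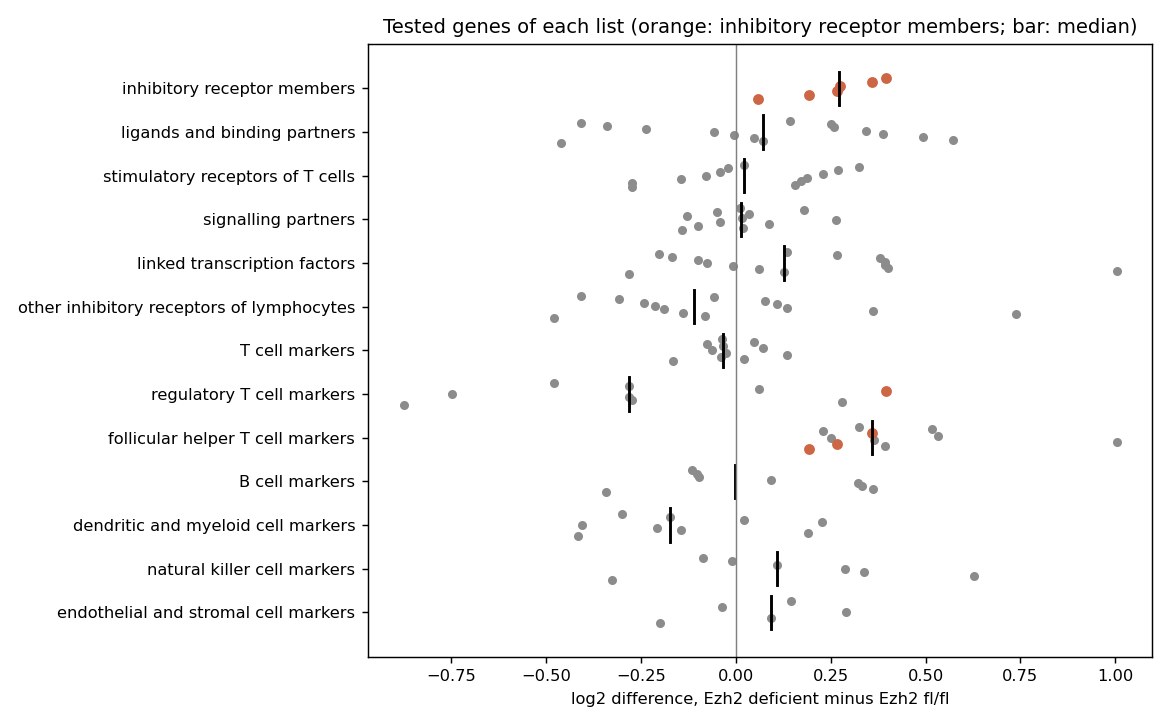
Log2 difference, Ezh2 deficient minus Ezh2 fl/fl (horizontal axis), of each tested gene on its brightest probe set, by gene list (rows); black bars are medians and orange points are inhibitory receptor members. The tested follicular helper genes all lie above 0 (median 0.36), and in the regulatory T cell list (median -0.28) Ctla4 is the highest point.

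Most, but not all, of the other regulatory T cell markers had a difference opposite in sign to that of Ctla4. Of the 8 tested regulatory markers other than members, 6 were lower, with a median of -0.28, where 46.9% of all genes were higher. At an unadjusted p under 0.05, 4 were lower (4.29% of all genes were). Groups did not overlap for 5 (7.8% of all genes were lower in that way). This list was chosen with earlier results of these data known, so the shares give no independent check. Capg, an actin capping protein, was at -0.88 (SE 0.15, adjusted p = 0.248), with a dimmer probe set at -0.45. Itgae, an integrin chain that is not limited to regulatory T cells, was at -0.75 and -0.41 on its pair of probe sets. Foxp3, the defining factor of these cells, named after its value was seen, had means of 327 ± 11.8 (Ezh2 fl/fl) and 263 ± 38.9 (deficient), at -0.28 (adjusted p = 0.706). The other 2 markers lay on the side of Ctla4 and are also named after their values were seen. Ikzf2, which encodes the transcription factor Helios, was at 0.28 with overlapping groups on its brightest probe set (unadjusted p = 0.0737) and at 0.34 with separate groups on its second (unadjusted p = 0.0306, adjusted p = 0.65). Gpr83, a receptor abundant on regulatory T cells, was at 0.06 and -0.01 on its pair of probe sets. The summed intensity of the whole list of 9 genes on the array, Ctla4 included, was 12045 to 12729 in Ezh2 fl/fl and 9668 to 11825 in deficient arrays. In these bulk samples a change in the share of cells of a type and a change in RNA per cell cannot be told apart.

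Pdcd1, Btla and Cd200 stand on a list of follicular helper T cell markers, and the other tested genes of that list also had positive differences, none past the threshold. Of these 8 tested genes all 8 had a positive difference on their brightest probe set (46.9% of all genes did), with a median of 0.38. At an unadjusted p under 0.05, 6 were higher (3.92% of all genes were). Groups did not overlap for 5 (6.4% of all genes were higher in that way). Ascl2, a transcription factor of early follicular helper cells, was below the filter, with means of 48.9 ± 12.3 (Ezh2 fl/fl) and 36.9 ± 4.13 (deficient) on the brightest of its 3 probe sets, and it was lower in the deficient mean on all 3. Sh2d1a, the adaptor of SLAM receptors, had means of 1326 ± 25.8 (Ezh2 fl/fl) and 1719 ± 52.0 (deficient), at 0.36 (SE 0.07, adjusted p = 0.347). Tox2, a transcription factor of follicular helper cells, had means of 581 ± 172 and 1209 ± 342, a fold of 2.01 (SE 0.23 on the log2 scale, adjusted p = 0.427). Bcl6, their defining factor, was at 0.39 and at 0.11 on its other, dimmer probe set. Slamf6 was at 0.33 on its brightest probe set, but at -0.24 and 0.44 on its others. On their brightest probe set all 8 tested genes stayed above 0 with any array left out and under the other scalings. The count at an unadjusted p under 0.05 was then 5 to 7. The counts and the refits use the same arrays, on a list chosen with earlier results of these data known. Neither is therefore an independent check, with or without the shares over all genes. The summed intensity of the whole list of 12 genes, members included, was 9881 to 11280 on the control arrays, against 12701 to 14212 on the deficient arrays. The part of follicular helper cells in the differences of Pdcd1, Btla and Cd200 was not tested.

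Tox2 and Bcl6 also had the smallest p among the transcription factors linked to inhibitory receptor expression. Of 15 tested, 9 were higher (46.9% of all genes were), with a median of 0.13, and none passed the threshold. At an unadjusted p under 0.05, 3 were higher and 1 lower, where 3.92% and 4.29% of all genes were. The lower one was Nfatc2, an NFAT gene named after its value was seen, at -0.20 (1449 ± 112 and 1250 ± 35.7, adjusted p = 0.672). Its other tested probe sets were at -0.15 to 0.31. Groups did not overlap for 3 factors on the higher side and 2 on the lower, where 6.4% and 7.8% of all genes did.

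Other cells that carry members were read from their own markers. Of 8 tested B cell markers 4 were higher, and the summed intensity of 11 genes was 12773 to 14501 on the control arrays, against 12152 to 13232 on the deficient arrays. Ighm alone made up 82.5% of that sum, and without it the remaining 10 genes summed to 2051 to 2365 and 2319 to 2451. Cd79a, Cr2 and Fcer2a were below the filter, Cd74 was at 0.32 and Blk at -0.34. Of 9 tested dendritic and myeloid markers 3 were higher, with sums over 13 genes of 1861 to 2373 and 1747 to 1860, so that the deficient arrays were all just below the controls. Flt3, Itgam, Cd209a and Tyrobp were below the filter. Csf1r was at -0.42 on its brightest probe set but at 0.12 and 0.29 on its others, and Fcgr3 was at -0.41. The means of Fcgr3 were 144 ± 40.1 and 96.5 ± 12.5, so it passed the filter only through the control arrays. Of 7 tested natural killer markers 4 were higher, with sums over 10 genes of 10322 to 11543 and 10604 to 10897, of which Nkg7 made up 62.8%. Ncr1, Klra8 and Tyrobp were below the filter, Gzma was at 0.63 and Il2rb at 0.29. Groups did not overlap for 3 natural killer markers on the higher side and 1 on the lower, where 6.4% and 7.8% of all genes did. The lower one was Klrk1, named after its value was seen, at -0.33 (274 ± 24.8 and 211 ± 33.3, adjusted p = 0.694). Of 5 tested endothelial and stromal markers 3 were higher, with sums over 9 genes of 1960 to 2555 and 2094 to 2216, Pecam1 at -0.20 and Col1a1 at 0.29. Cdh5, Cd34, Col3a1 and Lyve1 were below the filter. In each of these lists the tested markers that were not higher were lower. Among the T cell markers Cd8b1 was at -0.17 (adjusted p = 0.581) and Cd5 at 0.13, and 4 of 11 were higher. Groups did not overlap for 1 of the 11, Cd8b1, where 7.8% of all genes were lower in that way. The part of these other cells in the differences of the receptors was not tested.

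The 3 genes whose pattern over the 6 arrays was nearest to that of Ctla4 were Pik3r3, St8sia6 and Dcxr. Likeness was the root mean square difference of log2 values, each centred on its own mean, among 22001 probe sets of other single genes. It was 0.04 for Pik3r3, a regulatory subunit of phosphoinositide kinase, and 0.05 for both St8sia6, a sialyltransferase, and Dcxr, a carbonyl reductase. St8sia6 averaged 1310 ± 32.2 on the control arrays, against 1742 ± 116 on the deficient arrays. With 6 arrays and this many candidates, near patterns are found for any probe set.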

How the data were processed

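The deposited values are linear intensities of 45101 probe sets on each array. How the authors made these intensities is not given in the sources used here. Their trimmed mean (2% left out at each end) was 500.002 on every array. Arrays were quantile normalised and turned into log2(intensity + 43.3), the added value being the 20th percentile. The 64 control probe sets and those with a mean log2 value under the 40th percentile (an intensity near 113) were left out.

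Differences were tested two-sided with limma 3.58.1 in R 4.3.3 (eBayes with trend, 4 residual degrees of freedom, no covariate) over all 6 arrays, with Benjamini-Hochberg adjustment over 27022 probe sets. The step was tested on simulated data, but no result of that test is given here, so it lends the fit no weight. Gene names came from the platform annotation, and a gene of the 12 other lists was read by its brightest probe set. From each list the 2 genes with the smallest p were named, members aside. The members, lists and tests were chosen with earlier results of these data known. The alternatives were 2 other scalings, 2 pseudocounts, 2 filters, 3 variance settings (robust eBayes used statmod 1.5.0), another threshold, genes in place of probe sets, and each array left out. The number of arrays limits the precision.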

Additional observations from a re-analysis of the deposited data

How the results depend on the processing

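No member probe set was called by limma under any of the 17 alternatives, and every tested difference kept its sign in the 16 of them that refitted the model or changed its input. Ctla4 ran from 0.33 to 0.50, with an unadjusted p from 0.000519 to 0.0169 and an adjusted p from 0.364 to 0.900. The number of member probe sets at an unadjusted p under 0.05 was 1 to 4 with an array left out. The number called over the table was 1, but 3 under the deposited scaling, 2 with its median centred, 3 by robust eBayes, 3 with array weights, 2 with genes in place of probe sets, 6 at an adjusted p under 0.10, and 1 to 6 with an array left out (3 when Ezh2 fl/fl replicate 1 was omitted and 6 when Ezh2 deficient replicate 2 was). The cause was not tested. The Ezh2 difference of -1.16 (adjusted p = 0.0705) passed the adjusted threshold at -1.19 under the deposited scaling (adjusted p = 0.0421), at -1.16 by robust eBayes (just under 0.05), at -1.20 with array weights (0.0346), at -1.16 with genes in place of probe sets (0.0305) and, with an array left out, only without Ezh2 fl/fl replicate 1 (-1.28), where values ran from -1.28 to -1.05. Its cause was not tested either. The list counts without arrays and under other scalings were added after the data were seen, and the regulatory median was -0.39 without Ezh2 deficient replicate 1. Havcr2 and the dimmest Cd160 probe set gave too little signal for the main test. No paired analysis was possible because the labels number the arrays in a single run over both groups.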
